A study of Mus musculus with 26 samples.

Results

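The genes described here build heparan sulfate, carry it on the cell surface and thereby act as coreceptors for fibroblast growth factors (FGFs). The set named 9 genes: the sulfotransferases Hs6st1, Hs6st2, Hs2st1 and Ndst1, the chain polymerase Ext1, the glypicans Gpc3 and Gpc4, and the syndecans Sdc1 and Sdc4. Each gene was read from the probe set annotated to its symbol alone that had the highest mean over all 26 arrays, and 8 of the 9 were found among 18194 measured genes. Ndst1 was not analysed here. Hs6st2 was chosen by its signal in these same arrays, where it was higher in knockout than in wild-type cells with MEK inhibitor. That contrast is therefore given for Hs6st2 as a description with no test.

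The arrays measured messenger RNA in 13 groups of 2 arrays, all of them embryonic stem cells apart from the epiblast-like cells described below. The stem cells were male C57BL/6 mouse cells grown on mouse embryonic fibroblast feeders. Wild-type cells, labelled Prdm14(+/+) and without genetic modification, and Prdm14(-/-) cells were each grown in 4 media. These were 2i (N2B27 with 0.4 uM of the MEK inhibitor PD0325901, 3 uM of the GSK3 inhibitor CHIR99021 and LIF at 1000 units per ml), serum (GMEM with 20% FBS and LIF, for 2 days), serum without LIF, and serum with LIF and 0.4 uM PD0325901. Knockout cells carrying the pPyCAG-AGP14 transgene, which encodes an Avitag-EGFP-Prdm14 fusion, filled 3 groups (2i, serum, and serum minus LIF) and had no group with MEK inhibitor in serum. Epiblast-like cells (EpiLCs) of day 2 and day 3 came from another line, which carries Blimp1-mVenus and Stella-ECFP transgenes, and their medium is not in the labels. EpiLC state and line of origin therefore cannot be told apart when EpiLCs are set against wild-type cells in 2i. Whether replicates came from separate cultures is not stated in the labels, so a p-value reflects only how far these arrays spread, which may be technical variation, and 2 arrays a group limit the precision of every value.

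Heparan sulfate is a long sugar chain that Ext1 and its partner Ext2 polymerise in the Golgi on a linker attached to a core protein. N-deacetylase/N-sulfotransferases such as Ndst1 open the chain to sulfation, Hs2st1 then adds sulfate to uronic acids at the 2-O position, and Hs6st1 and Hs6st2 add it to glucosamine at the 6-O position. Glypicans, held in the membrane by a lipid anchor, and syndecans, which span it, display the chains, and the sulfation pattern affects how FGF and its receptor assemble on them. FGF signalling through MEK and ERK moves mouse embryonic stem cells away from the naive state, and embryonic stem cells that cannot make heparan sulfate are known to be impaired in leaving it.

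The Hs6st1 promoter window and the upstream Hs6st2 promoter window differ in base composition. Shown are 3 windows, for these 6-O-sulfotransferase genes and for Gpc4, which was called with Hs6st2 in 2i. RefSeq promoter entries of assembly GRCm38.p6 were found for 7 of the 9 genes, in 8 windows of 250 bases that end just before an annotated start. Ext1 and Ndst1 had no entry. Sequences run 5′ to 3′ on the gene's own strand, and capitals mark a TATA box (TATAAA) or a GC box (GGGCGG, on either strand). Hs6st2 lies on the minus strand at chrX:51681603-51681852, Hs6st1 on the plus strand at chr1:36068150-36068399 and Gpc4 on the minus strand at chrX:52164924-52165173.
Hs6st2: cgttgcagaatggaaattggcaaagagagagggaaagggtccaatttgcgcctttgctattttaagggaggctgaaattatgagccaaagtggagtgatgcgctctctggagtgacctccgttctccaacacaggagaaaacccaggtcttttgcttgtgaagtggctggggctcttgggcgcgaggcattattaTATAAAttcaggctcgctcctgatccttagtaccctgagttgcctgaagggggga
Hs6st1: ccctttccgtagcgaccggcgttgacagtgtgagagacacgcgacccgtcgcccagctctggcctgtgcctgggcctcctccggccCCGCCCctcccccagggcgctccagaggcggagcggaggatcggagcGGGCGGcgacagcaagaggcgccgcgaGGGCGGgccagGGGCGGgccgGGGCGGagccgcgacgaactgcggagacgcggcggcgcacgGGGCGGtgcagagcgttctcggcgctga
Gpc4: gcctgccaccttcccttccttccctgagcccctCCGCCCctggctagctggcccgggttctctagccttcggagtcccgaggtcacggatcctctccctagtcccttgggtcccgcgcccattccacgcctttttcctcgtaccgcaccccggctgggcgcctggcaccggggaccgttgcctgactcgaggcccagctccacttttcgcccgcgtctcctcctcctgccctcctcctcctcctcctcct
The Hs6st2 window held 7 CpG dinucleotides, 50% G and C, and 1 TATA box. The Hs6st1 window held 37 CpG dinucleotides, 76.4% G and C and 6 GC boxes, and the Gpc4 window held 18 CpG dinucleotides and 1 GC box. Hs6st2 has a second window at a downstream start, not printed, with 26 CpG dinucleotides, 72% G and C and neither motif. Over all 32851 windows of the same length the median was 6 CpG dinucleotides, with quartiles of 2 and 16. A TATA box was found in 12.4% of those windows and a GC box in 32.7%. Searched on both strands as well, and in no window of these genes, were a PRDM14 motif (GGTCTCTAA, in 0.24% of all windows), an ETS motif (CCGGAAGT, 2.88%), an AP-1 motif (TGAGTCA, 4.46%) and a cAMP response element (TGACGTCA, 1.55%). These matches describe letters in the window and are no evidence of a bound factor.

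Several facts of the whole series bear on these genes. The probe sets of the lys spike-in control, added to RNA before labelling, divided the arrays into a set of 12 arrays with mean values of 13.4 to 13.5 and a set of 14 arrays with 6.86 to 7.44. The first set holds wild-type and Prdm14(-/-) cells in 2i and with MEK inhibitor and both EpiLC groups, and the second holds the AGP14 cells in 2i and every serum group with or without LIF. Knockout against wild type in each medium, AGP14 against either in serum media, and the EpiLC comparisons lie within 1 spike-in set. AGP14 against the others in 2i, and serum against 2i or against MEK inhibitor in wild-type or knockout cells, cross the sets, and there the set and the group cannot be told apart. The probe set used for Prdm14 did not follow the labels: it read 11.33 and 11.24 in cells labelled knockout in 2i and 8.95 and 9.40 in wild-type cells in 2i, and its place relative to the deleted part is unknown here. The knockout is therefore written below as labelled. The mean of 21 feeder fibroblast markers, none of them at 0 on any array, was 8.59 in wild-type, 8.51 in labelled knockout and 8.14 in AGP14 cells in 2i, 7.41 and 7.27 in wild-type and labelled knockout cells with MEK inhibitor, 6.22 to 6.91 in the 6 serum groups with or without LIF, and 5.04 and 5.28 in EpiLCs of day 2 and day 3. In bulk RNA, fewer cells of a type and less RNA per cell cannot be told apart. The 10 pluripotent cell markers averaged between 10.06 and 12.07 in every group, and the 8 epiblast-like markers averaged 9.90 in day-2 EpiLCs against 6.35 in wild-type cells in 2i.

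Hs6st2, one of the enzymes that place 6-O-sulfate, varied with both genotype and medium. In wild-type cells its deposited log2 signal was 7.36 and 7.26 in 2i, 9.01 and 8.99 in serum, 8.79 and 8.92 in serum without LIF, and 6.81 and 6.30 with MEK inhibitor. In labelled knockout cells it was 9.12 and 9.09, 9.07 and 9.44, 8.76 and 9.10, and 9.09 and 9.56 in the same order of media. The 2 media that contain PD0325901 gave the low wild-type arrays, while no labelled knockout array lay below 8.76 in any medium. With AGP14 the signal was 8.10 and 8.06 in 2i, 7.42 and 7.18 in serum, and 7.17 and 6.97 in serum without LIF. Among these 3 media, 2i gave the highest AGP14 arrays and the lowest wild-type arrays. EpiLCs gave 7.79 and 7.95 on day 2 and 8.48 and 8.43 on day 3. Ordered by mean, the groups ran from 6.56 (wild type with MEK inhibitor) to 9.33 (labelled knockout with MEK inhibitor), and the arrays of neighbouring groups overlapped at 5 of 12 steps: AGP14 in serum with wild type in 2i, wild type without LIF with labelled knockout without LIF, labelled knockout without LIF with wild type in serum, labelled knockout in 2i with labelled knockout in serum, and the latter with labelled knockout plus MEK inhibitor.

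**Figure D1:**
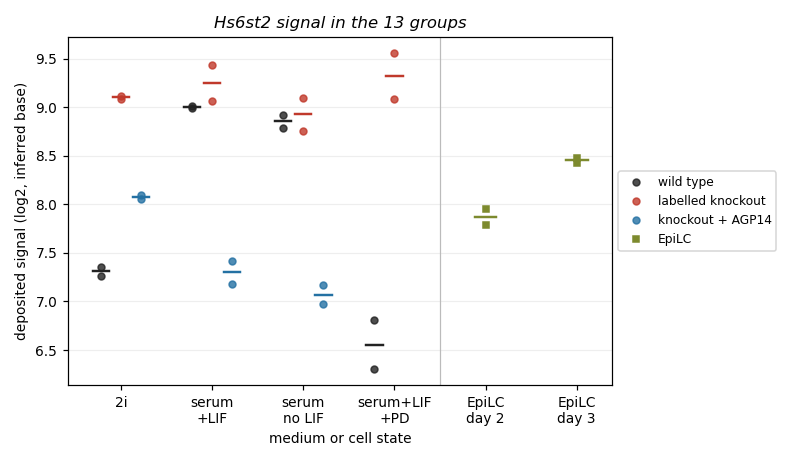
Hs6st2 signal (log2, y axis) by medium or cell state (x axis), with 1 point per array and a bar at each group mean. Labelled knockout arrays lie between 8.76 and 9.56 in all 4 media, while wild-type arrays lie between 6.30 and 7.36 in the media with PD0325901 and between 8.79 and 9.01 in the others.

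In 2i, Hs6st2 was 1.80 ± 0.17 (SE, log2, n = 2 arrays a group) higher in labelled knockout than in wild-type cells, 3.47-fold, and the arrays of the groups did not overlap (limma adjusted p = 2.03e-06). In serum the difference was 0.26 ± 0.17 (95% interval -0.10 to 0.61, limma adjusted p = 0.46), and without LIF it was 0.08 ± 0.17 (-0.28 to 0.43, limma adjusted p = 0.887). The difference itself differed between media: serum minus 2i gave -1.54 ± 0.24 (limma interaction, adjusted p = 0.0020). With MEK inhibitor in serum, the contrast that put the gene in the set, the groups differed by 2.77, or 6.82-fold. The difference in 2i passed under every setting tried. Feeder markers were 8.59 in wild-type and 8.51 in labelled knockout cells in 2i, and their part in this difference was not tested. The interaction crosses the spike-in sets, and it did not pass when the 4 Hs6st2 probe sets were averaged (adjusted p = 0.18). The 3 further probe sets had means of 3.12 to 4.87 over the arrays, below the median gene at 6.21, and differed by 0.10, 0.70 and 1.31 between labelled knockout and wild type in 2i.

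AGP14 cells had less Hs6st2 than both other genotypes in the serum media. Against labelled knockout the gene fell by 1.96 ± 0.17 (SE, log2) in serum, 3.88-fold lower (limma adjusted p = 1.44e-06), and it fell by 1.86 ± 0.17 without LIF (limma adjusted p = 8.08e-07). Against wild type it fell by 1.70 ± 0.17 in serum (limma adjusted p = 3.12e-05) and by 1.79 ± 0.17 without LIF (limma adjusted p = 7.58e-06). Every AGP14 array in these media lay at or below 7.42 and every array of the other genotypes at or above 8.76, and all 4 differences passed under every setting tried. The AGP14 arrays are shared by the comparisons with knockout and wild type. In 2i AGP14 cells lay between the other genotypes, 1.02 ± 0.17 below labelled knockout (limma adjusted p = 0.00022) and 0.77 ± 0.17 above wild type (limma adjusted p = 0.0026). Both of these cross the spike-in sets, and neither passed with the probe sets averaged (adjusted p = 0.10 and 0.067).

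Moving from 2i to serum raised Hs6st2 in wild-type cells by 1.69 ± 0.17 (SE, log2), 3.23-fold (limma adjusted p = 3.76e-07, passing under every setting but across the spike-in sets). The same step gave 0.15 ± 0.17 in labelled knockout cells (95% interval -0.21 to 0.51, limma adjusted p = 0.55). In AGP14 cells, whose 2i and serum arrays are in 1 spike-in set, Hs6st2 fell by 0.78 ± 0.17 (limma adjusted p = 0.0030), a call lost with the probe sets averaged (adjusted p = 0.70). Feeder markers fell from 8.59 to 6.22 in the wild-type step and from 8.14 to 6.66 in the AGP14 step, and their part in these differences was not tested. Removing LIF from serum gave -0.15, -0.33 and -0.23 in wild-type, labelled knockout and AGP14 cells, none of which passed. With MEK inhibitor in serum the wild-type arrays were 6.81 and 6.30 against 9.01 and 8.99 in serum, while the labelled knockout mean was 9.33 against 9.26.

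The remaining enzymes followed other patterns. Hs6st1, the other 6-O-sulfotransferase of the set, showed the widest span of group means of the 8 genes, 3.27. Its mean was lowest in EpiLCs of day 3 and highest in wild-type cells with MEK inhibitor. In stem cell groups it lay between 9.26 and 10.35 on every array. In serum it was 9.30 and 9.39 in labelled knockout and 9.81 and 9.90 in wild-type cells, arrays that did not overlap, and it fell by 0.51 ± 0.12 (SE, log2, limma adjusted p = 0.027). No 1 of the 4 arrays could be removed without losing that call (adjusted p = 0.072 to 0.17). In 2i, where Hs6st2 differed most among the tested media, Hs6st1 read 9.92 and 10.16 in labelled knockout and 10.05 and 10.04 in wild-type cells, a difference of -0.005 ± 0.12 (95% interval -0.27 to 0.26). AGP14 cells without LIF read 9.86 and 9.83 against 9.26 and 9.64 in labelled knockout (0.40 ± 0.12, limma adjusted p = 0.043), which was lost without either AGP14 array or without labelled knockout replicate 1 (adjusted p = 0.14 to 0.45).

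Hs2st1, the 2-O-sulfotransferase, was 8.94 and 8.91 in labelled knockout and 8.34 and 8.58 in wild-type cells in 2i, 0.47 ± 0.13 higher (SE, log2, limma adjusted p = 0.031). The arrays did not overlap, but the call was lost without wild-type replicate 1 (adjusted p = 0.30) or without either labelled knockout array (0.13 and 0.10). It was also lost with the 4 probe sets averaged (0.315, limma adjusted p = 0.29), without an intensity trend (0.054) and with only the compared groups (0.23). The 3 further probe sets read 0.06 to 0.56. In serum the same difference was 0.02 ± 0.13 (95% interval -0.26 to 0.29). With MEK inhibitor it was 0.405 ± 0.13, with arrays that did not overlap (limma adjusted p = 0.099, or 0.0053 with the replicate number as a block). Ext1, which elongates the chain, separated media rather than genotypes on its main probe set. Its arrays lay between 7.79 and 7.97 in the 3 groups in 2i, between 8.52 and 8.91 in the 6 groups in serum with or without LIF, and between 7.99 and 8.37 with MEK inhibitor. No array in 2i reached an array of any serum group. Its second probe set was dim, with a mean of 3.68, and averaging the pair ended every Ext1 call but none changed sign.

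Among the core proteins, Gpc4 differed most by genotype. In 2i it read 9.44 and 9.53 in labelled knockout, 8.07 and 9.03 in wild-type and 8.73 and 8.48 in AGP14 cells. Labelled knockout arrays lay above all others, while the wild-type pair was 0.96 apart. The excess over wild type was 0.94 ± 0.24 (SE, log2, limma adjusted p = 0.021), and it was lost without wild-type replicate 1 (adjusted p = 0.38) or without either labelled knockout array (0.075 and 0.10). In serum, without LIF and with MEK inhibitor, labelled knockout cells read 0.53, 0.63 and 0.57 above wild type. None of these passed in the main model (limma adjusted p = 0.26, 0.18 and 0.26). Wild-type replicate 1 was the lower of the pair in all 4 media. With the replicate number of each line as a block, these differences passed (limma adjusted p = 0.0051, 0.0013 and 0.0031). That block takes the gap between replicates out of the spread, so it cannot show how far separate cultures of a genotype differ. The second Gpc4 probe set gave 0.71 in 2i and 0.18 to 0.51 in the other media. AGP14 cells also read above wild type, by 0.67 in serum and 0.555 without LIF, and the arrays did not overlap. Neither passed in the main model (limma adjusted p = 0.11 and 0.17), while both passed with the block (0.00054 and 0.0019). The excess over wild type in serum media was thus not particular to labelled knockout cells. Against labelled knockout in 2i, AGP14 cells had 0.88 ± 0.24 less Gpc4 (limma adjusted p = 0.013, across spike-in sets, lost without AGP14 replicate 2 or labelled knockout replicate 2).

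Gpc3, a glypican mutated in an overgrowth syndrome, did not pass in any comparison of genotypes in the main model. Its arrays were 8.60 to 8.96 in the groups in 2i and 9.04 to 9.65 with MEK inhibitor in serum, where both genotypes were highest. AGP14 cells read 0.49 and 0.46 above labelled knockout in serum and without LIF (limma adjusted p = 0.11 and 0.12). Gpc3 is measured by a single probe set here, as is Hs6st1.

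Sdc1 and Sdc4, the syndecans, had opposing patterns over the 13 group means (r = -0.70, a description). Sdc1 was lowest with MEK inhibitor in serum, at 9.36 and 9.31 in wild-type and 9.27 and 9.33 in labelled knockout cells, and reached 10.31 and 10.45 in labelled knockout cells without LIF. Labelled knockout cells had 9.57 and 9.54 in 2i and 10.19 on both arrays in serum. AGP14 cells had 10.01 and 9.91 in 2i and 9.85 and 9.79 in serum, so that against labelled knockout Sdc1 was 0.41 ± 0.10 higher in 2i and 0.37 ± 0.10 lower in serum (SE, log2, limma adjusted p = 0.0066 and 0.025). Without LIF it was 0.35 ± 0.10 lower (limma adjusted p = 0.030). The probe set used for Sdc1 is of a type that can hybridise to related transcripts, and with its 4 probe sets averaged the sign in 2i turned to -0.42, so no direction of Sdc1 in 2i is drawn from these arrays. Averaged, the difference was -0.29 in serum and -0.17 without LIF, and neither passed (adjusted p = 0.14 and 0.41). The serum difference was lost without any 1 of its 4 arrays (adjusted p = 0.080 to 0.16), and the one without LIF was lost without replicate 2 of either genotype (0.21 and 0.29). Sdc4 gave 10.25 and 10.45 in wild-type and 10.58 and 10.82 in labelled knockout cells in 2i, a difference of 0.35 ± 0.21 that did not pass (limma adjusted p = 0.38).

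**Figure D2:**
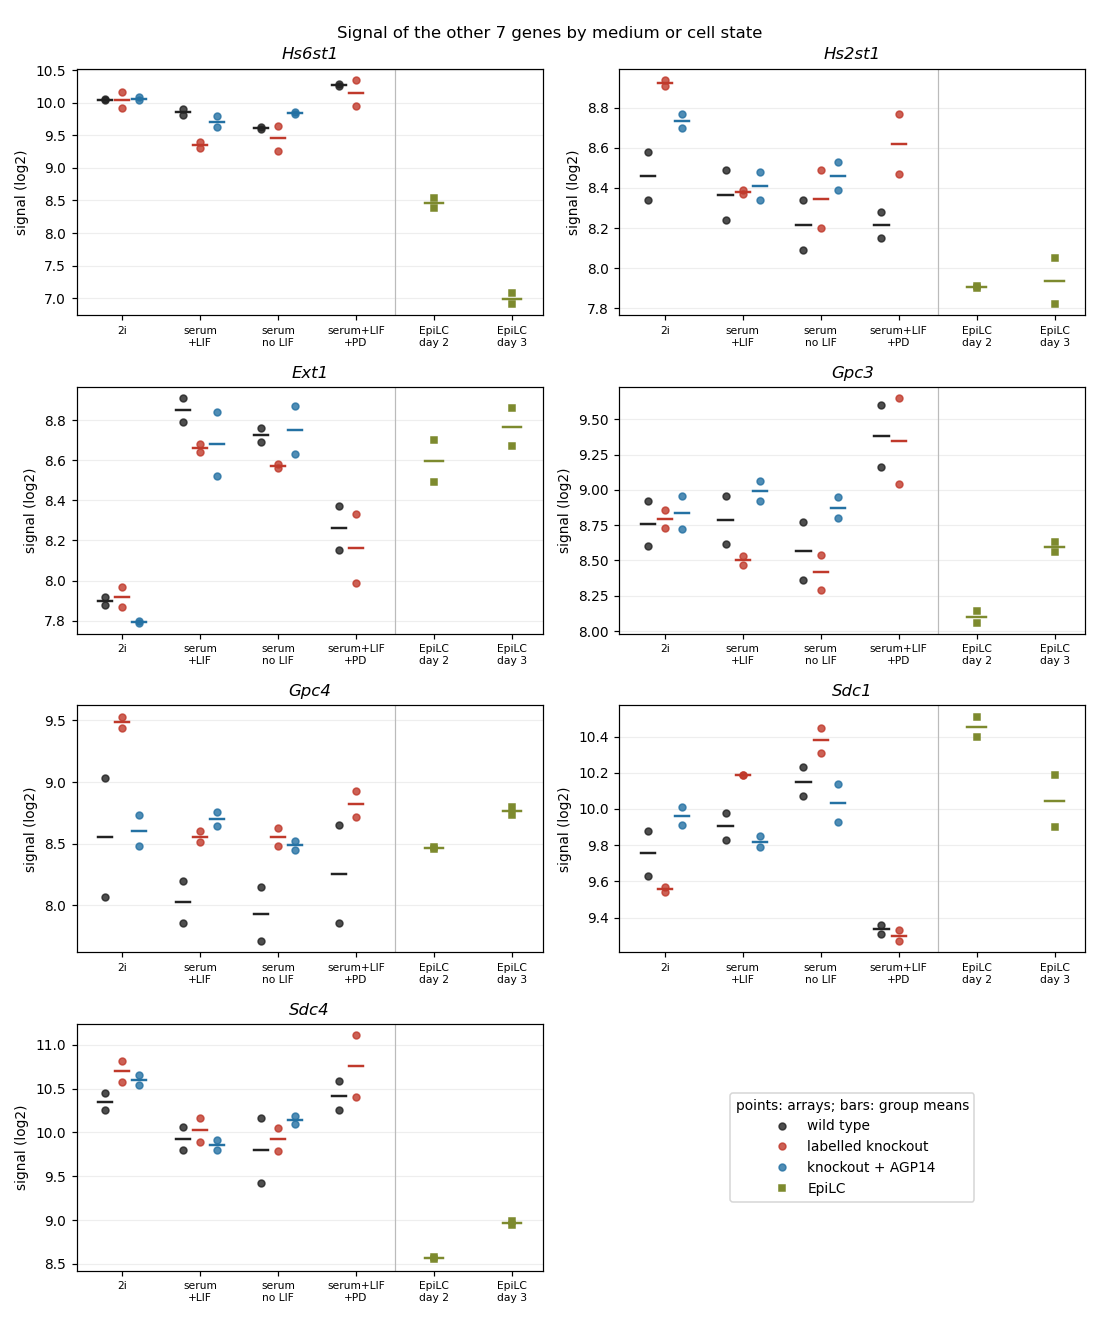
Signal (log2, y axes with separate ranges) of the other 7 genes by medium or cell state, 1 point per array and a bar at each group mean. Ext1 is low in every group in 2i, Hs6st1 and Sdc4 are low in EpiLCs, and the Gpc4 wild-type pairs are spread while the labelled knockout pairs are close.

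In 2i, 3 of 8 genes were called between labelled knockout and wild type, all higher (Hs6st2, Hs2st1 and Gpc4), where 9.15% of all genes were called. In serum 1 of 8 was called, lower (Hs6st1; 4.17% of all genes), and without LIF limma called 0 of 8 (4.19% of all genes), with Gpc4 and Sdc1 at an unadjusted p under 0.05. With MEK inhibitor limma called 0 of the 7 genes other than Hs6st2 (4.08% of all genes), with Hs2st1 and Gpc4 at an unadjusted p under 0.05. Without the wild-type replicate 2 array with MEK inhibitor that count was 1. Leaving out arrays 1 at a time gave 1 to 3 genes in 2i (under 3 without either labelled knockout array or wild-type replicate 1), 0 in serum each time and 0 without LIF each time, and Hs6st2 was the gene that stayed called in 2i under all of them. The median difference of the 8 genes was 0.19 in 2i, 0.06 in serum and 0.10 without LIF, beside -0.03, -0.02 and -0.005 over all genes.

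AGP14 against labelled knockout called 2 of 8 genes in serum (Hs6st2 and Sdc1, both lower; 10.5% of all genes) and 3 of 8 without LIF (Hs6st2 and Sdc1 lower, Hs6st1 higher; 13.3%). In 2i, across the spike-in sets, it called 3 of 8 (Hs6st2 and Gpc4 lower, Sdc1 higher; 24.2%). AGP14 against wild type called Hs6st2 alone in each medium, where 25.4%, 6.96% and 10.7% of all genes were called in 2i, serum and serum without LIF. In serum each array left out took the count against labelled knockout from 2 to 1, leaving Hs6st2. Without LIF the count against labelled knockout was 1 without AGP14 replicate 2, and the count against wild type was 2 without wild-type replicate 2.

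**Figure D3:**
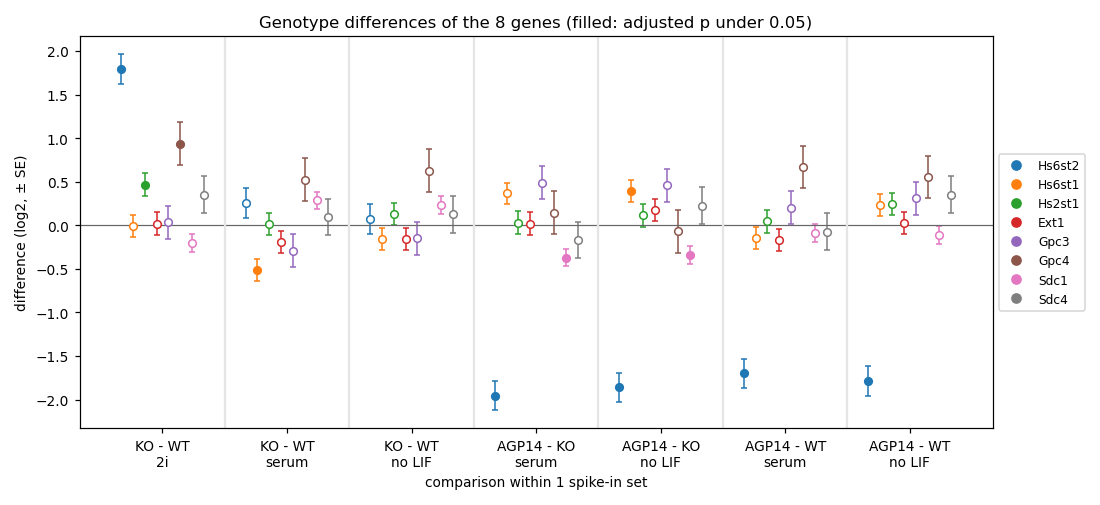
Difference in log2 signal between genotypes (y axis, ± SE, n = 2 arrays a group) for the 8 genes in 7 comparisons (x axis). Each lies within 1 spike-in set, and the MEK inhibitor contrast that chose Hs6st2 is left out. The genes were chosen with earlier results of these data known. Filled points passed at an adjusted p under 0.05. Hs6st2 stands at 1.80 for labelled knockout minus wild type in 2i and between -1.96 and -1.70 for AGP14 minus either genotype in serum with or without LIF.

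Ext1 rose in serum in all 3 genotypes, by 0.95 ± 0.13 in wild-type, 0.74 ± 0.13 in labelled knockout and 0.89 ± 0.13 in AGP14 cells (SE, log2, limma adjusted p = 9.60e-06, 0.00013 and 7.27e-05), the last within 1 spike-in set. Each was lost with its dim second probe set averaged in (adjusted p = 0.062, 0.81 and 0.43). In labelled knockout cells serum also went with changes of -0.70 in Hs6st1, -0.55 in Hs2st1, -0.93 in Gpc4, -0.68 in Sdc4 and 0.64 in Sdc1. Of these, Sdc4 was lost without replicate 2 in either medium (adjusted p = 0.13 and 0.14) and Sdc1 with the probe sets averaged (0.42). In AGP14 cells Sdc4 fell by 0.75 ± 0.21 in serum (limma adjusted p = 0.018), which was lost without any 1 of its 4 arrays (0.061 to 0.12).

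The counts for serum against 2i were 2 of 8 genes in wild-type cells (Hs6st2 and Ext1, both higher; Gpc4 read -0.52 with limma adjusted p = 0.11, or 0.0012 with the replicate number as a block), 6 of 8 in labelled knockout cells (2 higher and 4 lower) and 3 of 8 in AGP14 cells (1 higher and 2 lower). Of all genes, 34.6%, 35.8% and 18.2% were called in these comparisons. In labelled knockout cells Gpc3 read -0.295 (limma adjusted p = 0.25, or 0.047 with the replicate number as a block). The unequal counts of wild-type and labelled knockout cells are not a test of a difference: the interaction called Hs6st2 alone of the 8, where 2.97% of all genes were called, and also Sdc1 without wild-type 2i replicate 2 (adjusted p = 0.036). With the replicate number as a block, that interaction also called Hs6st1, Hs2st1 and Sdc1 (limma adjusted p = 0.010, 0.030 and 0.0095). In serum against 2i, 16 of 21 feeder markers fell in wild-type cells, 16 in labelled knockout cells and 15 in AGP14 cells. Their part in the differences of these genes was not tested.

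MEK inhibitor in serum changed several of these genes, in comparisons that cross the spike-in sets. Against serum alone, Ext1 fell by 0.59 in wild-type and 0.50 in labelled knockout cells, and Sdc1 fell by 0.57 and 0.89. Hs6st1 rose by 0.41 and 0.81, and Gpc3 rose by 0.59 and 0.85. Sdc4 rose by 0.73 in labelled knockout cells and read 0.49 in wild-type cells (limma adjusted p = 0.10, or 0.032 with the replicate number as a block). Hs2st1 read 0.24 in labelled knockout cells (limma adjusted p = 0.21, or 0.045 with the replicate number as a block). The counts were 4 of the 7 genes other than Hs6st2 in wild-type cells (25.5% of all genes) and 5 of 7 in labelled knockout cells (24.5%). Without labelled knockout replicate 2 with MEK inhibitor the count in labelled knockout cells was 2, with Ext1, Gpc3 and Sdc4 lost, and without wild-type replicate 1 with MEK inhibitor the count in wild-type cells was 2. In wild-type cells Hs6st1 was lost without either MEK inhibitor array or serum replicate 1 and Gpc3 without MEK inhibitor replicate 1 or serum replicate 2, and in labelled knockout cells Sdc4 was also lost without serum replicate 2. Both Ext1 and both Sdc1 calls ended with the probe sets averaged, and Sdc1 in wild-type cells then read 0.09. Against 2i, within 1 spike-in set, MEK inhibitor in serum called Gpc3 (0.62 higher) and Sdc1 (0.42 lower) of 7 genes in wild-type cells (12.5% of all genes). Ext1 read 0.36 there (limma adjusted p = 0.073, or 0.015 with the replicate number as a block). Gpc3 was lost without wild-type 2i replicate 2 or MEK inhibitor replicate 1, and Sdc1 without wild-type 2i replicate 1 or MEK inhibitor replicate 2. In labelled knockout cells limma called 0 of 7 (13.2% of all genes), with 4 at an unadjusted p under 0.05, and 1 was called without MEK inhibitor replicate 1. With the replicate number as a block, those called against 2i in labelled knockout cells were Hs2st1 (-0.305), Gpc3 (0.55), Gpc4 (-0.66) and Sdc1 (-0.255). Their limma adjusted p was 0.018, 0.0019, 0.00042 and 0.025. Feeder markers were 7.41 and 7.27 with MEK inhibitor, between their values in serum and 2i, and the part of these markers was not tested.

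Withdrawal of LIF from serum left all 8 genes uncalled. In limma 0 of 8 passed in wild-type, labelled knockout and AGP14 cells, where 1.5%, 1.1% and 0.302% of all genes were called. At an unadjusted p under 0.05 the count was 1, 0 and 1, and the gene was Sdc1 both times. The difference between labelled knockout and wild type did not change detectably with LIF: the interaction called 0 of 8 genes and 0% of all genes, with 0 of the 8 and 654 of all genes at an unadjusted p under 0.05.

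EpiLCs differed from wild-type cells in 2i in most of these genes. Hs6st1 read 10.05 and 10.04 in wild-type cells in 2i, 8.39 and 8.54 in EpiLCs of day 2 and 7.08 and 6.91 on day 3. The 3 groups did not overlap, and the gene fell by 1.58 ± 0.12 and then by a further 1.47 ± 0.12 (SE, log2, limma adjusted p = 8.74e-09 and 2.30e-07), both under every setting tried. Sdc4 read 10.25 and 10.45, then 8.55 and 8.58, then 8.99 and 8.94: it fell by 1.79 ± 0.21 by day 2 (limma adjusted p = 1.52e-06, under every setting), and the 0.40 ± 0.21 from day 2 to day 3 did not pass (0.23). Hs6st2 rose while Hs6st1 fell, by 0.56 ± 0.17 by day 2 and by 0.59 ± 0.17 from day 2 to day 3 (limma adjusted p = 0.013 and 0.021). The first was lost without EpiLC day 2 replicate 2 or wild-type replicate 2 (adjusted p = 0.10 and 0.078), and the second without any 1 of its 4 arrays (0.053 to 0.16). With the 4 probe sets averaged the second step was 0.0625 (adjusted p = 0.89), and the further probe sets ranged from -0.625 to 0.17.

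Of the other genes, Ext1 and Sdc1 rose by 0.70 each by day 2, and Hs2st1 fell by 0.56 and Gpc3 by 0.66. Gpc3 was lost without EpiLC day 2 replicate 1 or wild-type replicate 1 (adjusted p = 0.057 and 0.10), and Ext1 and Hs2st1 with the probe sets averaged (0.41 and 0.0515). Gpc4 was the gene not called, at -0.09 ± 0.24 (95% interval -0.60 to 0.43). In all, 7 of 8 genes were called by day 2 (3 higher and 4 lower, against 38.3% of all genes) and 3 of 8 from day 2 to day 3 (Hs6st2 higher, Hs6st1 and Sdc1 lower, 17.6% of all genes). From day 2 to day 3 the count was 1 without day 2 replicate 2 and 1 without day 3 replicate 2, with Sdc1 lost both times. Feeder markers averaged 8.59 in wild-type cells in 2i and 5.04 in EpiLCs of day 2, and their part in the first step was not tested. From day 2 to day 3 they went from 5.04 to 5.28, and their part in that step was not tested either.

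**Figure D4:**
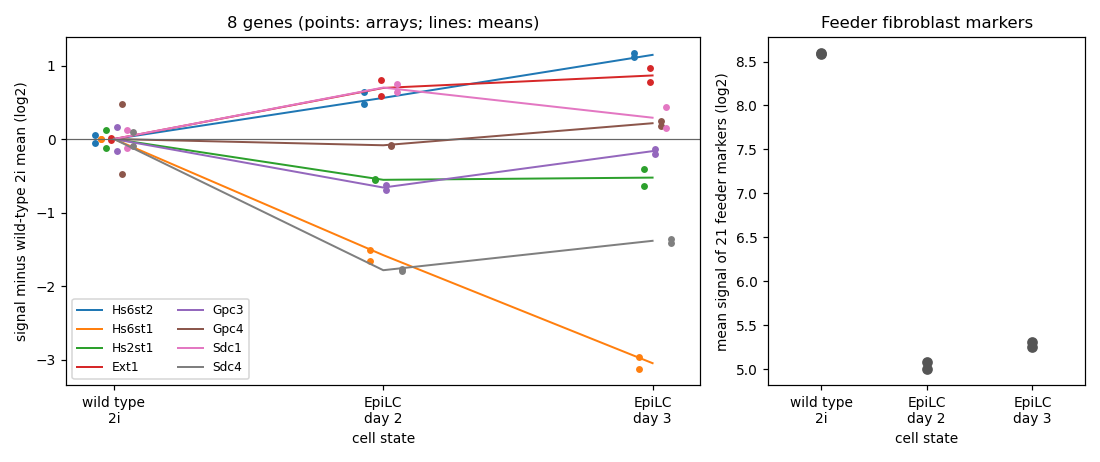
Left, signal of the 8 genes relative to the wild-type 2i mean (log2, y axis) in wild-type cells in 2i and in EpiLCs of day 2 and day 3 (x axis), points for arrays and lines through group means. Hs6st1 falls at both steps. Right, the mean log2 signal of 21 feeder fibroblast markers per array, which is 8.59 on average in 2i and 5.04 and 5.28 in EpiLCs.

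The rest of the heparan sulfate pathway, 49 further measured genes for the linker, polymerisation, modification, precursors, turnover and core proteins, were set against the knockout label in each medium. In 2i 1 of 49 was called, Ugdh, which makes the UDP-glucuronic acid used in the chain, 1.28 ± 0.13 higher (SE, log2, limma adjusted p = 5.62e-06). Ugdh was also higher with MEK inhibitor, by 0.99 ± 0.13 (limma adjusted p = 0.00020), together with the core protein gene Col18a1, by 0.45 ± 0.10 (limma adjusted p = 0.010). In serum limma called 0 of 49. At an unadjusted p under 0.05 the counts of the 49 were 5 in 2i, 9 in serum, 14 without LIF and 9 with MEK inhibitor. Without LIF 3 core protein genes were higher in labelled knockout cells: agrin (Agrn, 0.98), perlecan (Hspg2, 0.74) and Gpc1 (0.59; limma adjusted p = 0.0090, 0.027 and 0.041). Hspg2 is also a matrix gene of fibroblasts, and feeder markers averaged 6.71 in labelled knockout and 6.22 in wild-type cells without LIF. Their part in these 3 differences was not tested. The shares called, 2.04%, 0%, 6.12% and 4.08% of 49 in 2i, serum, serum without LIF and MEK inhibitor, stand beside 9.15%, 4.17%, 4.19% and 4.08% of all genes.

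Serum against 2i lowered 18 of the 49 genes in wild-type and 19 in labelled knockout cells and raised 3 and 1. Both of these steps cross the spike-in sets. In AGP14 cells, within 1 spike-in set, 12 were lower and 2 higher. These are 42.9%, 40.8% and 28.6% of the 49, beside 34.6%, 35.8% and 18.2% of all genes. The syndecan Sdc2 fell in all 3 genotypes, by 2.48, 2.21 and 1.19 on the log2 scale, and Ext2, the partner of Ext1 in the polymerase, fell by 0.85 and 0.83 in wild-type and labelled knockout cells with -0.22 in AGP14 cells (limma adjusted p = 0.25). Ext1 and Ext2 thus had opposite signs in serum. Feeder markers fell from 8.59 to 6.22, from 8.51 to 6.42 and from 8.14 to 6.66 in these steps, in the same order of genotypes. Their part in the falls of Sdc2 and the other genes was not tested. Day-2 EpiLCs had 18 of 49 lower and 6 higher than wild-type cells in 2i (49% against 38.3% of all genes), among them Sdc3, which fell by 2.82, Sdc2, which fell by 1.96, and the endosulfatase Sulf2, which removes 6-O-sulfate from finished chains and fell by 1.21 ± 0.08 (limma adjusted p = 9.52e-10). The 6-O-sulfotransferase Hs6st3 averaged 0.15 in day-2 EpiLCs and 2.45 in 2i, near the floor of the scale. Feeder markers averaged 5.04 in day-2 EpiLCs against 8.59 in wild-type cells in 2i, and their part in these differences was not tested.

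Fgfr1, the main FGF receptor of these cells, was 1.45 ± 0.12 higher in labelled knockout than in wild-type cells in 2i (SE, log2, limma adjusted p = 2.90e-07). Hs6st2 and Gpc4 were also called higher in 2i, but not only there did they read higher. Hs6st2 differed by 2.77 with MEK inhibitor (no test), and Gpc4 by 0.53 to 0.63 in the other media (not called). In AGP14 cells Fgfr1 fell against labelled knockout by 0.45 in serum and 0.57 without LIF (limma adjusted p = 0.018 and 0.0028). Of 14 FGF ligand and receptor genes, 1 was higher and 1 lower in labelled knockout cells in 2i, where 9.15% of all genes were called, with a median of -0.30 beside -0.03 over all genes. Of 15 genes induced by or feeding back on ERK, 5 were higher and 0 lower in 2i, 1 and 0 in serum, and 2 and 0 without LIF, where 9.15%, 4.17% and 4.19% of all genes were called. The feedback inhibitor Spry2 was in each count, higher by 1.24, 0.83 and 0.50. Serum against 2i raised 12, 10 and 11 of these 15 genes in wild-type, labelled knockout and AGP14 cells, where 34.6%, 35.8% and 18.2% of all genes were called. Hs6st2 differences in the same comparisons were 1.69, 0.15 (not called) and -0.78.

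Hs6st2, Gpc4 and Gpc3 are neighbours on chromosome X in the RefSeq gene table of GRCm38.p6, with Gpc4 6 and Gpc3 7 annotated genes from Hs6st2. The 12 other measured genes of the stretch were read to see whether the genotype differences were shared. Mbnl3, a splicing regulator next to Hs6st2 among the measured genes, was 1.35 ± 0.37 higher (SE, log2) in labelled knockout than in wild-type cells in 2i (limma adjusted p = 0.028), and fell by 1.35 in AGP14 against labelled knockout in serum and by 1.43 without LIF (limma adjusted p = 0.024 and 0.014). The kinase gene Stk26 fell by 1.10 and 1.07 in the same AGP14 comparisons (limma adjusted p = 0.012 and 0.011) and read -0.35 in 2i between labelled knockout and wild type (0.53). Gpc4 read 0.15 and -0.07 and Gpc3 0.49 and 0.46 between AGP14 and labelled knockout in serum and without LIF, and neither was called. The other calls of the stretch between AGP14 and labelled knockout were Igsf1 in serum (-0.71) and Rap2c and Ccdc160 without LIF (-0.49 and -0.97). In 2i the genes called between labelled knockout and wild type in this stretch were Mbnl3, Hs6st2 and Gpc4, where 9.15% of all genes were called. For AGP14 against labelled knockout the share of all genes was 10.5% in serum and 13.3% without LIF. The Gpc4 difference in 2i depended on single arrays, as given above, and was 0.455 without wild-type replicate 1.

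**Figure D5:**
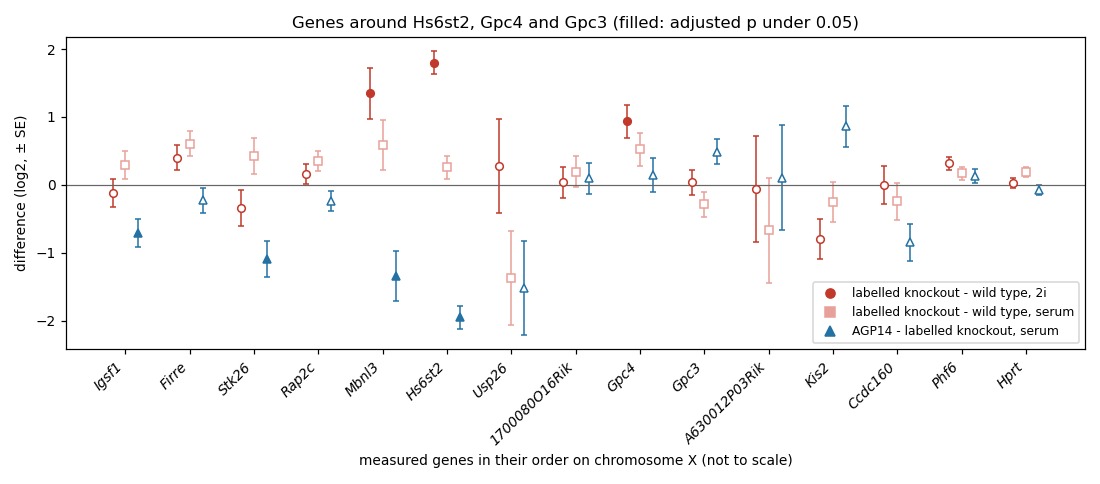
Difference in log2 signal (y axis, ± SE, n = 2 arrays a group) for the measured genes around Hs6st2, Gpc4 and Gpc3 in their order on chromosome X (x axis, not to scale); filled symbols passed at an adjusted p under 0.05. Mbnl3 and Hs6st2 lie at 1.35 and 1.80 in labelled knockout minus wild type in 2i and at -1.35 and -1.96 in AGP14 minus labelled knockout in serum, and Gpc4 reads 0.94 and 0.15.

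Over the 13 group means, the genes whose pattern was most like that of each member were found among 11063 other genes that spanned at least 1 on the log2 scale. For Hs6st2 they were Prex1, Rlim and Naprt (Pearson r = 0.93, 0.92 and 0.90). For Hs6st1 they were Dyrk3, Sos1, which encodes a RAS activator, and Lmbr1 (r = 0.985, 0.980 and 0.979), for Sdc4 Yod1, Txndc15 and Anks1 (r = 0.97, 0.97 and 0.96), and for Ext1 Myrf, Kndc1 and Slc39a14 (r = 0.97, 0.97 and 0.96). Gpc4 had the least close match, Itga5 at r = 0.90. Hs2st1 was nearest to Mbd1 (0.95), Gpc3 to Scarb2 (0.93) and Sdc1 to Zfp467 (0.95). Among the 8 genes themselves, Hs2st1 and Sdc4 (r = 0.88) and Hs6st1 and Sdc4 (0.84) ran together, Gpc3 and Sdc1 ran opposite (-0.92), and Hs6st1 and Hs6st2 had r = -0.13. These values describe 13 points that share lines, media, spike-in sets and feeders, and carry no test.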

How the data were processed

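Messenger RNA of 26 samples was hybridised to Affymetrix arrays, 1 per sample, after one-cycle cRNA labelling per the labels' protocols. The authors deposited log2-scale values for 45100 probe sets. The base of the logarithm is inferred from the highest value, 13.89, and how they were summarised and normalized was not given in the sources used here. Arrays hold no read depth, so their number limits the precision. Platform annotation gave 34957 probe sets 1 symbol, 932 several and 9147 none, and 64 were controls. Each gene was represented by its brightest probe set on average among those with 1 symbol. Groups came from the sample titles. Differences were tested two-sided with limma 3.58.1 in R 4.3.3, in 1 model of 13 group coefficients over 26 arrays (13 residual degrees of freedom) with intensity-trend moderation, adjusted by Benjamini-Hochberg over 18194 genes and called at an adjusted p under 0.05. The procedure was tested on simulated data. Alternatives were the mean of probe sets, quantile normalization, no trend, dim genes left out, the replicate number as a block, only the compared groups, and each array left out. Replicate numbers are shared between groups. Differences of replicate 1 from 2 correlated at over 0.1 in all 6 pairs of wild-type groups (0.11 to 0.22), in 5 of 6 pairs of labelled knockout groups (0.099 to 0.20), in 0 of 3 pairs of AGP14 groups and in 0 of 62 pairs between genotypes. The main model took no numbers as pairs. Blocked values come from a model with a replicate term for each line. They are given in the text where they change a call within wild-type or labelled knockout cells. They are also given for the knockout interaction of serum minus 2i and for some genotype differences of Hs2st1, Gpc3 and Gpc4. After the data were seen, the line as a random block and 4 comparisons (MEK inhibitor against 2i in both genotypes, and genotype by medium with AGP14) were added. The members, lists and rules were chosen with earlier results of these data known. Named were the members, at most 5 called heparan sulfate genes per list, at most 4 of the FGF, ERK and marker lists, chromosome X neighbours, and the 3 genes most like each member. Lists not described in the text, for chondroitin sulfate, extraembryonic endoderm and trophoblast genes, had 3, 0 and 1 called genes between labelled knockout and wild type in 2i. Plots were drawn with matplotlib 3.10.9 in Python 3.11.15.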

Additional observations from a re-analysis of the deposited data

Results flagged for a closer look

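Hs6st2 differed between media in its genotype effect in 3 interaction terms. The difference of labelled knockout from wild type was 1.80 in 2i and 0.26 in serum, a change of -1.54 ± 0.24 (SE, log2, limma adjusted p = 0.0020), and this was called with any 1 of the 8 arrays left out but not with the probe sets averaged (adjusted p = 0.18). The difference of AGP14 from wild type was 0.77 in 2i and -1.70 in serum, a change of -2.47 ± 0.24 (limma adjusted p = 4.64e-06), called under every setting tried, where 13.3% of all genes were called. The difference of AGP14 from labelled knockout was -1.02 in 2i and -1.96 in serum, a change of -0.93 ± 0.24 (limma adjusted p = 0.014; 14.2% of all genes). The last was lost without replicate 2 of AGP14 or of labelled knockout in serum (adjusted p = 0.066 and 0.075) and with the probe sets averaged (-0.65, adjusted p = 0.14). Sdc1 was 0.41 higher in AGP14 than in labelled knockout cells in 2i and 0.37 lower in serum, a change of -0.775 ± 0.14 (limma adjusted p = 0.0014), but with its 4 probe sets averaged the change was 0.13. Each of these terms crosses the spike-in sets, so set and medium or genotype cannot be told apart in them.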

How the results depend on the processing

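Of 51 called values of the 8 genes, 15 passed under every setting and 36 were lost under at least 1. Among values that passed as reported or under the alternative, 6 changed sign, all of Sdc1 with its probe sets averaged. Those 6 became -0.42 (AGP14 against labelled knockout in 2i), -0.69 (AGP14 against wild type in 2i), -0.48 (serum against 2i in wild type), 0.0912 (MEK inhibitor against serum in wild type), 0.75 and 0.13 (AGP14 minus wild type and AGP14 minus labelled knockout, each serum minus 2i), and the cause was not tested. The counts that follow are of genes called, and those not listed stayed within 1.5 times.

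With the probe sets averaged the count was 1 for AGP14 against labelled knockout in serum, 0 for serum against 2i in AGP14 cells, 2 for MEK inhibitor against serum in wild type, and 0, 2 and 1 for the interactions of serum minus 2i with labelled knockout minus wild type, AGP14 minus wild type and AGP14 minus labelled knockout. Quantile normalization gave 3 for AGP14 against wild type in 2i, 2 for MEK inhibitor against serum in wild type, 1 for MEK inhibitor against 2i in labelled knockout and 2 for the knockout interaction. Without an intensity trend the count was 0 for labelled knockout against wild type in serum, 1 for AGP14 against labelled knockout in serum and 1 without LIF, and 1 for MEK inhibitor against 2i in wild type. Leaving out dim genes gave 1 for MEK inhibitor against 2i in labelled knockout. With only the compared groups in the model it was 1 for labelled knockout against wild type in 2i and 0 in serum, 5 for serum against 2i in AGP14 cells, 3 for MEK inhibitor against serum in labelled knockout, 6 for EpiLC day 3 against day 2 and 0 for MEK inhibitor against 2i in wild type.

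With the replicate number of each line as a block, the count for labelled knockout against wild type was 3 in serum, 1 without LIF and 2 with MEK inhibitor. It was 4 for AGP14 against labelled knockout in serum, 2 for AGP14 against wild type in each of 2i, serum and serum without LIF, 5 for serum against 2i in AGP14 cells, 4 for MEK inhibitor against 2i in labelled knockout, and 4, 2 and 4 for the interactions with labelled knockout minus wild type, AGP14 minus wild type and AGP14 minus labelled knockout. With the line as a random block, added after the data were seen (consensus correlation 0.20), it was 2 for AGP14 against wild type in serum, 5 for serum against 2i in AGP14 cells, 3 for MEK inhibitor against 2i in labelled knockout and 3 for the knockout interaction.

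Leaving out arrays 1 at a time gave 1 to 3 for labelled knockout against wild type in 2i, 0 in serum and 0 to 1 with MEK inhibitor. For AGP14 against labelled knockout it gave 1 in serum and 1 to 2 without LIF, and against wild type without LIF 1 to 2. For MEK inhibitor against serum it gave 2 to 3 in wild type and 2 to 5 in labelled knockout, and against 2i 1 to 2 and 0 to 1. For EpiLC day 3 against day 2 it gave 1 to 2, and for the interactions of serum minus 2i 1 to 2 each. Where a group was left with 1 array, that array was assumed to vary like the other groups.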
